A study of Mus musculus with 6 samples.

Results

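The genes described here encode the classical axon guidance ligands and their receptors, measured in mouse primary oligodendrocyte precursor cells (mOPCs) after knockdown (KD) of Qk. Members were taken by gene symbol alone, as semaphorins of classes 3 to 7, plexins, neuropilins, Eph receptors, ephrins, Robo receptors, Slit ligands, Unc5 receptors and netrins. The rule found 70 of the 23038 listed genes, 37 in ligand families and 33 in receptor families. mOPCs were purified by immunopanning from mouse embryos, transfected with control siRNA (siNC, 3 libraries) or with siRNA for the Qk gene (siQk, 3 libraries) and collected 72 h later. According to the labels, 3 different siRNAs against Qk were used, and which of them went to which siQk library is not given. Strain, sex and genotype of the embryos are not stated in the sources used here, and no group carried a genetic change by its label. Libraries were made from poly-A RNA, and each value below is either an RPKM, the authors' level scaled by exon length and library total, or a log2 fold change of siQk over siNC.

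Axon guidance molecules are secreted or membrane-bound cues that steer growing axons and migrating cells by attraction or repulsion. Semaphorins signal through plexins, and most secreted class 3 semaphorins need a neuropilin as co-receptor. Ephrins are bound to the membrane and signal on contact through Eph receptor tyrosine kinases. Slits repel through Robo receptors, whereas netrin-1 attracts through Dcc and repels through Unc5 receptors. Precursors of oligodendrocytes (OLs) migrate widely in the developing central nervous system, and netrin-1 and class 3 semaphorins are known cues for them. Qk encodes the Qki RNA-binding proteins, which act on splicing, stability and translation of mRNAs.

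Library totals ranged from 58166490 to 141045937 tags, of which 249937 to 516670 tags per library fell on the 70 genes. The smallest library, siNC replicate 1, had 3.11% of its tags on Rn45s, a ribosomal RNA precursor, against 0.169% to 0.389% in the other libraries, and the part of this in the results was not tested. The targeted gene, Qk, was at 209, 206 and 163 RPKM in the siNC libraries and at 51.3, 76.6 and 36.2 RPKM in the siQk libraries. All siQk libraries thus lay below all siNC libraries, with 28.4% of the mean siNC level left (log2 fold change -1.98, standard error 0.28, edgeR FDR 0.00311). An exact two-sided permutation test of this value gave p = 0.1, and no 3 against 3 design can give a lower one, so the calls below rest on the edgeR fit across all genes. The OPC markers Pdgfra, Olig2 and Sox10 were present in every library. Microglial, endothelial, fibroblast and mural markers were at or below 0.390 RPKM in every library, except Kdr (up to 4.70 RPKM) and P2ry12, which was at 0.669 to 3.20 RPKM in siNC and 0.152 to 0.287 RPKM in siQk. Transcripts of the neuronal and astrocyte lists were present. Of the neuronal markers, Gap43 averaged 156 RPKM in siNC and Tubb3 was at 97.6 to 166 RPKM there, while Stmn2 did not exceed 0.0439 RPKM and Slc17a6 was listed at 0 throughout. Of the astrocyte markers, S100b averaged 140 RPKM and Gfap 69.1 RPKM in siNC (157 and 9.85 RPKM in siQk), while Gja1 did not exceed 0.0130 RPKM.

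Guidance genes were broadly present in mOPCs. In siNC, 20 members had a mean of at least 10 RPKM, 27 lay between 1 and 10 RPKM and 23 lay below 1 RPKM. The highest member was Plxnb3, a class B plexin that binds Sema5a, at 147, 120 and 99.7 RPKM in the siNC libraries. Per family, the highest mean over the 6 libraries belonged to Sema4d (30.8 RPKM), Plxnb3 (111 RPKM), Nrp1 (1.82 RPKM), Ephb1 (18.4 RPKM), Efna1 (7.87 RPKM), Robo2 (9.57 RPKM), Slit2 (2.60 RPKM), Unc5b (5.84 RPKM) and Ntn4 (21.1 RPKM). Plexin RPKM summed to between 211 and 267 per library and semaphorin RPKM to between 163 and 242, whereas both neuropilins together gave 1.25 to 2.73. The cultures therefore held plexin transcripts at a far higher level per length than neuropilin transcripts.

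**Figure D1:**
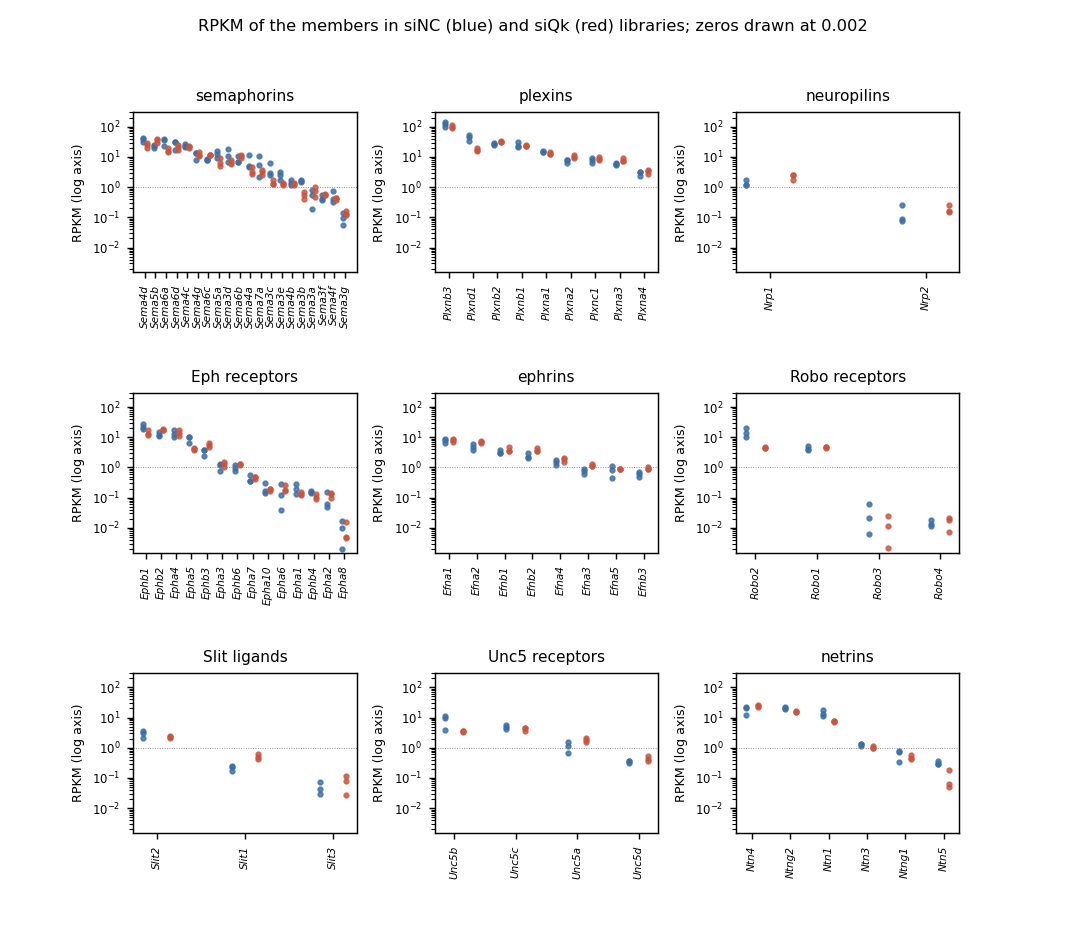
RPKM of all 70 members on a log axis, 1 panel per family, with the siNC libraries in blue and the siQk libraries in red, 1 point per library, and zeros drawn at 0.002. Plxnb3 stands highest, neuropilins stay below 3 RPKM, and the dotted line marks 1 RPKM.

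After the filter on low values (average logCPM over 0), 60 members were tested, and 17 of them passed both limits set for a call, P below 0.01 with an FDR below 0.1. Of these 17, 13 were lower in siQk and 4 were higher. The called share of the tested members was 28.3%, against a background of 31.0% over the 12505 genes tested. Lower members made up 21.7% (background 17.2%) and higher members 6.67% (background 13.8%). The share called was thus near the background, with more lower and fewer higher members than over all genes, and these differences in share were not tested. The median log2 fold change of the tested members was -0.08, against 0.01 over all genes tested. By role, 10 of 34 tested ligand genes changed (7 lower, 3 higher), and so did 7 of 26 tested receptor genes (6 lower, 1 higher). Without siQk replicate 1, 10 members were called, 8 lower and 2 higher. With library size in place of TMM factors, a scaling that moved the median of all genes to 0.16, 12 members were lower and 9 were higher.

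**Figure D2:**
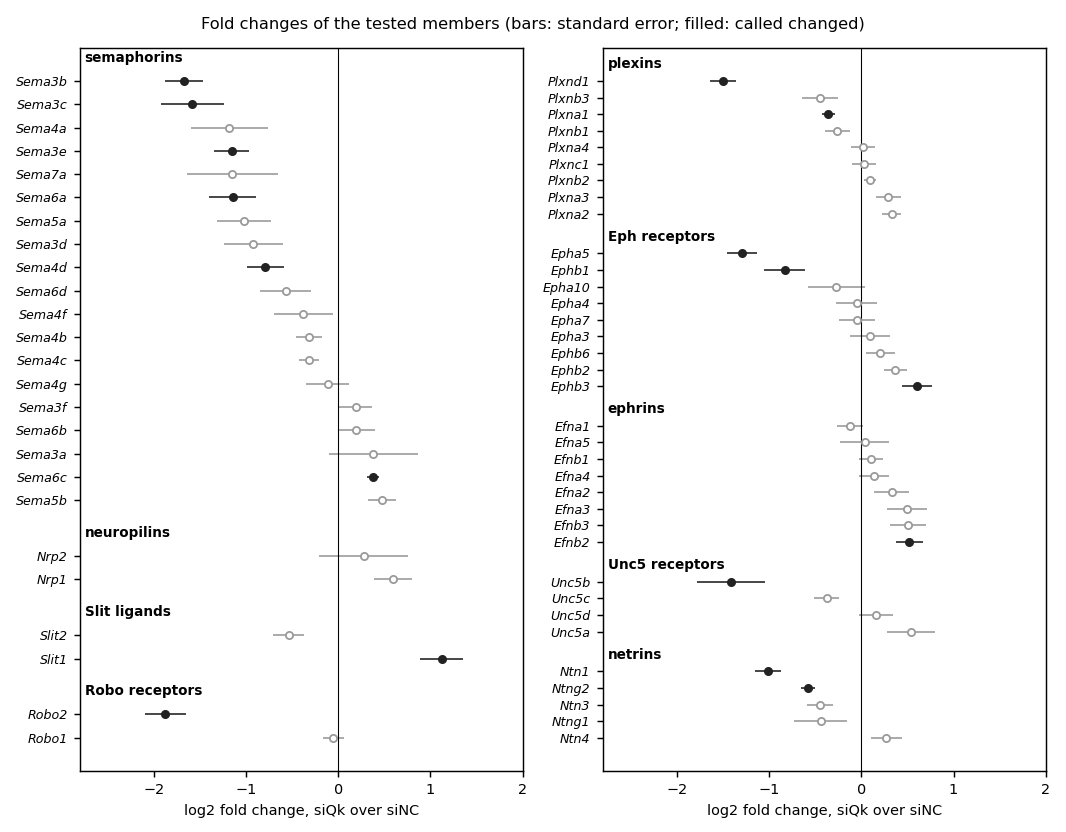
Log2 fold changes of the 60 tested members by family, as siQk over siNC, with standard errors as bars and filled points for the 17 called members. Robo2 lies farthest to the left at -1.87 and Slit1 farthest to the right at 1.12.

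The RPKM ranges of siNC and siQk did not overlap for 31 of the 60 tested members, or 51.7% (background 58.3%). Of the 60, 16 lay apart and lower in siQk, against 2050 of all 12505 genes tested (16.4%). Another 15 of the 60 lay apart and higher, against 5244 of the 12505 (41.9%). These differences in share were not tested. All 17 called members were among the 31 without overlap. RPKM carries no TMM factor, and these factors were 0.899 to 0.987 in siNC and 1.04 to 1.07 in siQk, so that RPKM sets siQk somewhat higher than the fold changes do.

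Qki proteins bind RNA at a core of ACUAAC or ACUAAU, often with a second, shorter motif, UAAC or UAAU, nearby. In DNA letters, the cores are ACTAAC or else ACTAAT, and the shorter motifs are TAAC or else TAAT. For each gene, the annotated 3'UTR of greatest length was searched for them on the sense strand only, with 1 to 20 bases between a core and a shorter motif, so that they never overlapped. A core was present in 36.7% of the 60 tested members and in 36.1% of the 11831 tested genes with such a 3'UTR. Of the 13 lower members 6 held a core (46.2%, against 52.9% of all lower genes), as did 1 of the 4 higher members (25.0%, against 27.3% of all higher genes) and 15 of the 43 members not called (34.9%, against 33.6%). Median 3'UTR lengths were 2615, 1000 and 1733 bases in these groups of members, and 1566, 1145 and 1249 bases in the same groups over all genes tested. A core with a shorter motif nearby was found in 3 of the 13 lower members, Robo2, Epha5 and Sema6a (23.1%, against 27.2% of all lower genes), in none of the 4 higher members (9.09% of all higher genes) and in 9 of the 43 members not called (20.9%, against 13.4%). The lower members thus held these motifs at shares no higher than lower genes in general, though their 3'UTRs were longer at the median. Per kb of 3'UTR, cores numbered 0.407 in the lower members and 0.494 in all lower genes. A match describes the sequence and does not show binding. The core of Ephb1 lies in the 3'UTR of a short transcript that ends 117064 bases before the 3' end of the gene. The 3'UTR of its full-length transcript, of 1358 bases, held none. For Sema6a, the searched 3'UTR, with 2 cores in 3129 bases, ends 9656 bases before the 3' end of the gene. The Sema6a 3'UTR that reaches this end, of 317 bases, held none. For 5 of the 7 called members with a core, 1 site is given below in 30 bases of mRNA-sense sequence, with the core and any shorter motif in capitals (GENCODE M21, mm10), as examples of both lower and higher calls. Sites of Ephb1 and Sema6a are not shown. The site is the first after the stop codon that has a shorter motif nearby or, where there is none, the first core.
Robo2, chr16:73892502-73892531, minus strand, core after the shorter motif: gaaccaTAATtttcactACTAATatcattt
Epha5, chr5:84058111-84058140, minus strand, core before the shorter motif: aACTAATtagtttatttaaacagcTAATgc
Sema3c, chr5:17729969-17729998, plus strand, core alone: ctcaaaagcataACTAATacatattgagta
Ntn1, chr11:68209821-68209850, minus strand, core alone: caagataggctcACTAATgggccgtggttc
Efnb2, chr8:8619156-8619185, minus strand, core alone: tgaaagatttttACTAATatatattttaag
The core and the shorter motif were 7 bases apart in Robo2 and 17 bases apart in Epha5. Robo2 held 5 cores in a 3'UTR of 3987 bases, Epha5 2 cores in 4281 bases and Efnb2, which was higher in siQk, 1 core in 3154 bases.

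The called semaphorins with the largest fold changes were secreted ones of class 3. Of the 6 tested, 3 were lower in siQk (50%, background 17.2%) and none was higher (background 13.8%). Sema3b, which repels axons through neuropilins and class A plexins, was at 1.54, 1.66 and 1.65 RPKM in siNC and at 0.706, 0.414 and 0.558 RPKM in siQk (chromosome 9, 107597674 to 107609241). The siNC libraries lay close together, and the highest siQk library stood below all of them (log2 fold change -1.67, standard error 0.21, edgeR FDR 0.00214). Sema3c, a cue for migrating cells of the nervous system and the heart, was at 2.84, 2.53 and 6.18 RPKM in siNC and at 1.24, 1.77 and 1.26 RPKM in siQk. Its groups did not overlap, but siNC replicate 3 stood well above the other siNC libraries (log2 fold change -1.58, standard error 0.34, edgeR FDR 0.0131). Its call was lost without siQk replicate 1 (log2 fold change -1.49) and without siQk replicate 3 (-1.51). Sema3e, which binds Plxnd1 without a neuropilin, was at 1.77, 3.17 and 2.56 RPKM in siNC and at 1.24, 1.34 and 1.15 RPKM in siQk. Both groups were apart, and the mean of siQk was 49.7% of that of siNC (log2 fold change -1.16, standard error 0.19, edgeR FDR 0.00505). The other tested class 3 members, Sema3a, Sema3d and Sema3f, were not called.

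Among the membrane-bound semaphorins, 2 fell and 1 rose. Sema4d, a ligand of Plxnb1, was at 43.0, 38.2 and 31.4 RPKM in siNC and at 24.0, 19.1 and 29.4 RPKM in siQk. Its lowest siNC library stood just above its highest siQk library (log2 fold change -0.79, standard error 0.20, edgeR FDR 0.0231). Sema6a, which signals through Plxna2 and Plxna4, was at 40.3, 37.2 and 22.3 RPKM in siNC and at 14.4, 16.2 and 19.9 RPKM in siQk. Here siNC replicate 3 lay near the siQk libraries while the other two stood well above them (log2 fold change -1.15, standard error 0.26, edgeR FDR 0.0149). Both calls were lost without siNC replicate 2, where the log2 fold changes were -0.79 for Sema4d and -1.08 for Sema6a, without siQk replicate 1 (-0.79 and -1.05) and without siQk replicate 2 (-0.64 and -1.11), and that of Sema4d also without siNC replicate 1 (-0.64). Sema6c, of the same class as Sema6a, went the other way, from 7.75, 7.97 and 8.51 RPKM to 11.6, 11.9 and 11.4 RPKM. This was a small but tight difference that held in each of the 13 alternative fits (log2 fold change 0.38, standard error 0.06, edgeR FDR 0.00583). Of all 19 tested semaphorins, 6 were called (5 lower, 1 higher), or 31.6% against the background of 31.0%. A log2 fold change below 0 was found in 14 of the 19, against 6103 of all 12505 genes tested.

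Among the semaphorin receptors, the calls were confined to plexins. Of the 9 plexins, all tested, 2 were lower (22.2%, background 17.2%) and none was higher (background 13.8%). Plxnd1, the receptor of Sema3e, was at 34.9, 45.8 and 53.4 RPKM in siNC and at 19.5, 16.0 and 16.8 RPKM in siQk (chromosome 6, 115954811 to 115995339). The siQk mean was 39.0% of the siNC mean, with a wide gap between the groups (log2 fold change -1.50, standard error 0.14, edgeR FDR 0.000936). It had the smallest FDR of the 60 tested members and was called in each of the 13 alternative fits. The ligand Sema3e and its receptor Plxnd1 were thus both lower in siQk. Plxna1, a receptor chain for class 3 semaphorins, was at 14.9, 15.5 and 14.8 RPKM in siNC and at 12.5, 14.1 and 12.7 RPKM in siQk. The difference was small against the level (log2 fold change -0.36, standard error 0.07, edgeR FDR 0.00853), and with library size in place of TMM factors it was no longer called (log2 fold change -0.21). Plxnb3 was not called, at 147, 120 and 99.7 RPKM in siNC and 95.3, 87.6 and 117 RPKM in siQk, with ranges that overlapped (log2 fold change -0.45, standard error 0.20, edgeR FDR 0.112). Nrp1, a co-receptor for class 3 semaphorins and for Vegfa, was at 1.22, 1.71 and 1.16 RPKM in siNC and at 2.53, 1.75 and 2.56 RPKM in siQk. Its ranges touched without overlapping, and it was not called (log2 fold change 0.59, standard error 0.21, edgeR FDR 0.0633).

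Ephrins and Eph receptors changed in both directions. Of the 8 ephrins, all tested, 1 was higher (12.5%, background 13.8%) and none was lower (background 17.2%). None of the 5 ephrin-A genes was called, and Efna1, the highest of them, was at 6.34, 8.14 and 8.88 RPKM in siNC and 8.86, 8.26 and 6.72 RPKM in siQk (log2 fold change -0.12, standard error 0.14). Efnb2, a transmembrane ligand of EphB receptors and of Epha4, was at 2.19, 2.04 and 2.94 RPKM in siNC and at 3.52, 4.28 and 3.61 RPKM in siQk. All siQk libraries were higher, but the gene stood just inside the limit on P (log2 fold change 0.52, standard error 0.15, edgeR FDR 0.0321). Leaving out any library other than siNC replicate 3 took its call, with log2 fold changes of 0.50 without siNC replicate 1, 0.41 without siNC replicate 2, 0.57 without siQk replicate 1, 0.44 without siQk replicate 2 and 0.55 without siQk replicate 3.

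Of the 9 tested Eph receptors, 2 fell (22.2%, background 17.2%) and 1 rose (11.1%, background 13.8%). Epha5, which binds ephrin-A ligands, was at 6.22, 10.05 and 10.3 RPKM in siNC and at 3.77, 4.29 and 3.94 RPKM in siQk. The siQk libraries lay close together, at 45.1% of the siNC mean (log2 fold change -1.29, standard error 0.16, edgeR FDR 0.00238), and the call held in each of the 13 alternative fits. Ephb1, the highest Eph receptor by the mean over all 6 libraries, was at 27.5, 21.1 and 19.3 RPKM in siNC and at 12.7, 11.9 and 18.0 RPKM in siQk. With siQk replicate 3 the gap to the siNC libraries was narrow (log2 fold change -0.83, standard error 0.22, edgeR FDR 0.0256). Ephb3, like Ephb1 a receptor of ephrin-B ligands, was at 2.48, 3.82 and 3.76 RPKM in siNC and at 5.73, 6.38 and 4.85 RPKM in siQk. It was thus the only one of the 26 tested receptor genes called higher (log2 fold change 0.61, standard error 0.16, edgeR FDR 0.0258). The calls of Ephb1 and Ephb3 were lost without siNC replicate 1 (log2 fold changes -0.62 and 0.46), siQk replicate 1 (-0.76 and 0.60) or siQk replicate 2 (-0.71 and 0.52), that of Ephb1 also without siNC replicate 2 (-0.90) and that of Ephb3 without siNC replicate 3 (0.67).

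In the Slit and Robo system a receptor fell and a ligand of low level rose. Of the 2 tested Robo receptors, 1 was lower (50%, background 17.2%). Of the 2 tested Slit ligands, 1 was higher (50%, background 13.8%). Robo2, a receptor through which Slits repel, was at 13.5, 10.2 and 20.4 RPKM in siNC and at 4.64, 4.40 and 4.27 RPKM in siQk (chromosome 16, 73891976 to 75447443). The siNC libraries were widely spread, the siQk libraries hardly at all, and the lowest siNC library stood above the highest siQk library. With 30.2% of the siNC mean left, this was the largest fold change among the tested members (log2 fold change -1.87, standard error 0.23, edgeR FDR 0.00202), and it was called in each of the 13 alternative fits. With 1 library left out its log2 fold change ran from -2.09 to -1.60. Robo1, a relative of Robo2, averaged 4.31 ± 0.718 RPKM in siNC against 4.61 ± 0.309 RPKM in siQk (SD, n = 3 each) and was not called. This member is named because it is the other tested Robo receptor, and was chosen after its values were seen. Slit1 was at 0.236, 0.243 and 0.163 RPKM in siNC and at 0.512, 0.607 and 0.436 RPKM in siQk. All of these levels were low, and the siQk libraries were 2.42-fold higher by their mean (log2 fold change 1.12, standard error 0.23, edgeR FDR 0.0116). The call held in each of the 12 alternative fits that kept the gene. Slit2, the Slit with the highest level, was at 2.10, 3.12 and 3.63 RPKM in siNC and 2.30, 2.03 and 2.40 RPKM in siQk, with overlapping ranges. It missed the limit on P (log2 fold change -0.54, standard error 0.17, edgeR FDR 0.0450).

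Netrins and Unc5 receptors were lower where they were called. Of the 5 tested netrins, 2 were lower (40%, background 17.2%) and none was higher (background 13.8%). Of the 4 Unc5 receptors, all tested, 1 was lower (25%) and none was higher. Ntn1, the secreted netrin that attracts or repels according to the receptor, was at 11.0, 13.4 and 17.8 RPKM in siNC and at 7.82, 7.96 and 7.38 RPKM in siQk (chromosome 11, 68209364 to 68386826). Again the siQk libraries lay close together and below all siNC libraries (log2 fold change -1.01, standard error 0.14, edgeR FDR 0.00301). Ntng2, a netrin-G that is anchored to the membrane and does not act through Dcc, was at 19.4, 22.1 and 20.2 RPKM in siNC and at 16.0, 14.9 and 14.9 RPKM in siQk. Its difference was smaller and tight (log2 fold change -0.58, standard error 0.08, edgeR FDR 0.00271). Both netrins were called in each of the 13 alternative fits. Ntn4, a netrin of basement membranes and the highest of its family by the mean over all 6 libraries, was at 12.5, 20.3 and 21.5 RPKM in siNC and 25.5, 23.0 and 23.6 RPKM in siQk, and was not called (log2 fold change 0.27, standard error 0.17, edgeR FDR 0.242). Unc5b, a receptor for netrin-1, was at 9.39, 11.4 and 3.89 RPKM in siNC and at 3.37, 3.48 and 3.53 RPKM in siQk. Here siNC replicate 3 stood only slightly above the siQk libraries (log2 fold change -1.41, standard error 0.37, edgeR FDR 0.0254). Its call was lost without any 1 of the libraries except siNC replicate 3, at -1.26 without siNC replicate 1, -1.13 without siNC replicate 2, -1.39 without siQk replicate 1, -1.41 without siQk replicate 2 and -1.43 without siQk replicate 3.

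**Figure D3:**
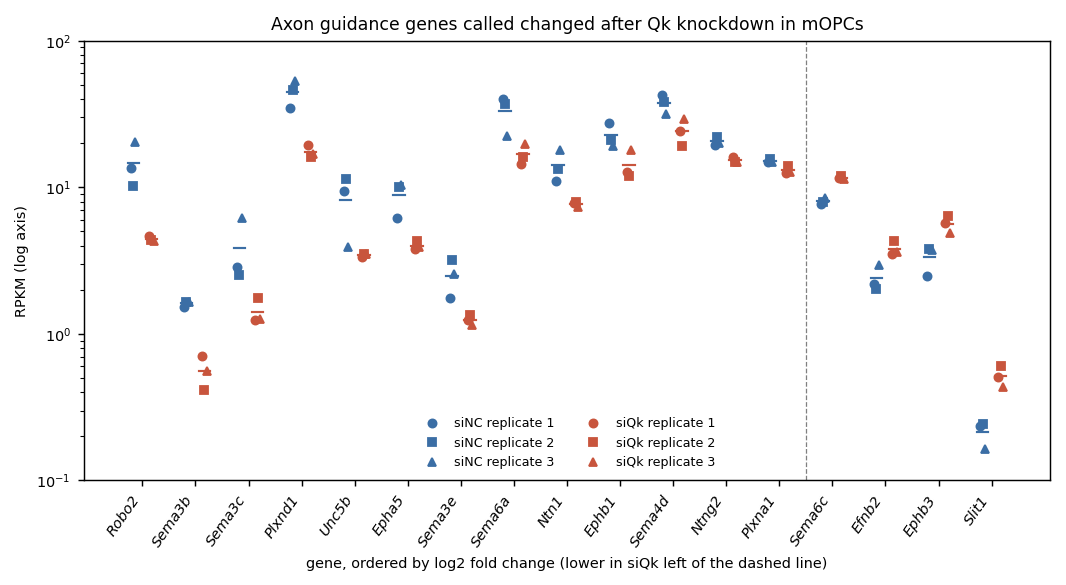
RPKM of the 17 called members on a log axis in each library, with siNC in blue, siQk in red, a marker shape for each replicate and short lines for group means, ordered by log2 fold change. Groups are apart in all 17 genes, widely so in Robo2, Sema3b and Plxnd1 and narrowly in Unc5b, where siNC replicate 3 was at 3.89 RPKM and the highest siQk library at 3.53 RPKM.

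Genes that work with these ligands and receptors but lie outside the rule were followed as a list of 61, with 59 tested. Of these, 10 were higher and 10 lower in siQk, or 33.9% against the background of 31.0%. Of the 8 other receptors and adhesion molecules, all tested, 4 were higher (50%, background 13.8%) and 1 lower (12.5%, background 17.2%). Those that rose were Dscam, Dscaml1, L1cam and Dcc, and Met fell. Dscam, a cell adhesion molecule that can act as a netrin receptor, was at 19.3, 27.6 and 18.0 RPKM in siNC and at 55.4, 48.6 and 54.9 RPKM in siQk (log2 fold change 1.14, standard error 0.17, edgeR FDR 0.00373). Its relative Dscaml1 was at 4.89 ± 1.81 and 13.7 ± 1.81 RPKM (SD, n = 3 each, log2 fold change 1.33, edgeR FDR 0.00977). Dcc, the attractive netrin receptor, was chosen after its values were seen because Ntn1 and Unc5b had fallen, and was at 10.3, 12.9 and 12.3 RPKM in siNC and 17.1, 18.4 and 17.7 RPKM in siQk (log2 fold change 0.43, standard error 0.07, edgeR FDR 0.00597). Netrin-1 and its receptor Unc5b were thus lower, and Dcc and Dscam were higher, in siQk, but the Unc5b call was lost in 6 of the 13 alternative fits. The other Unc5 receptors were not called, at log2 fold changes of 0.54 (Unc5a), -0.37 (Unc5c) and 0.16 (Unc5d). Neo1, listed with Dcc, was not called either (-0.10). These uncalled genes are named here after their values were seen. L1cam, an adhesion molecule that pairs with Nrp1, was at 0.663 ± 0.167 and 1.62 ± 0.574 RPKM (SD, n = 3 each, log2 fold change 1.15, edgeR FDR 0.0247), and lost its call without siNC replicate 1 (1.05), siNC replicate 3 (1.06), siQk replicate 1 (1.15) or siQk replicate 3 (0.86). Met, a growth factor receptor that associates with class B plexins, was at 0.541, 0.587 and 0.804 RPKM in siNC and at 0.121, 0.0772 and 0.123 RPKM in siQk (log2 fold change -2.72, standard error 0.24, edgeR FDR 0.000895).

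Inside the cell, 6 of the 45 tested mediators were higher (13.3%, background 13.8%) and 9 lower (20%, background 17.2%), so these shares were near the background. Rhoa, the small GTPase through which many repellents act on actin, was at 222, 217 and 205 RPKM in siNC and at 119, 120 and 111 RPKM in siQk. It was the most abundant of the partners with a log2 fold change of at least 1 in size, and its groups were far apart (log2 fold change -1.04, standard error 0.08, edgeR FDR 0.000633). Vav3, a guanine nucleotide exchange factor used by Eph receptors, averaged 11.4 ± 3.31 RPKM in siNC against 5.73 ± 1.01 RPKM in siQk (SD, n = 3 each, log2 fold change -1.14, edgeR FDR 0.00845). None of the 6 other ligands was called, among them Rgma and Draxin, the latter listed under an older symbol.

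Markers of maturing OLs moved with the groups. The background over all genes tested was 17.2% called lower and 13.8% called higher in siQk. Of the 11 tested markers of mature OLs, 8 were lower in siQk (72.7%) and none was higher. The RPKM of the mature OL list summed to between 3515 and 6126 in siNC and to between 1515 and 2278 in siQk, with Aspa at or below 0.0419 RPKM throughout. Of the 10 OPC markers, 4 were higher (40%) and 1 lower (10%), with sums of 1057 to 1133 in siNC and 1283 to 1445 in siQk. Of the 7 tested astrocyte markers, 4 were lower (57.1%) and 1 higher (14.3%), with sums of 213 to 313 in siNC and 187 to 216 in siQk. Of the 11 tested neuronal markers, 2 were higher (18.2%, near the background) and none lower, with sums of 284 to 390 and 299 to 324. In bulk RNA, fewer cells of a type and less RNA per cell cannot be told apart, and the part of these shifts in the changes of the guidance genes was not tested.

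The siNC libraries differed among themselves in the same markers. In siNC replicate 3, Mbp was at 0.392 and Mag at 0.336 of the mean of the other two siNC libraries, and 6 of the 8 markers of mature OLs called lower had their lowest siNC value there. Among the 13 lower guidance genes, siNC replicate 3 was the lowest siNC library for 5 (Unc5b, Sema6a, Sema4d, Ephb1 and Plxna1), the highest for 5 (Sema3c, Robo2, Ntn1, Plxnd1 and Epha5) and the middle one for 3 (Sema3b, Sema3e and Ntng2). Unc5b and Sema6a were there at 0.374 and 0.576 of the mean of the other two, whereas Robo2 was at 1.73 and Sema3c at 2.30 of that mean. Over all 2149 lower genes, replicate 3 was the lowest siNC library in 29.0% and the highest in 39.8%. Astrocyte markers called lower (4) also differed in siNC. Gfap was there at 51.4, 54.6 and 101 RPKM and Slc1a2 at 18.6, 13.0 and 20.9 RPKM. Slc1a3 was at 27.1, 22.0 and 27.4 RPKM and Aldh1l1 at 7.88, 6.96 and 6.23 RPKM. Replicate 3 was thus the highest siNC library for Gfap, Slc1a2 and Slc1a3 and the lowest for Aldh1l1. Neither the lower guidance genes nor the lower astrocyte markers varied in 1 direction across the control libraries. A link between them was not tested.

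**Figure D4:**
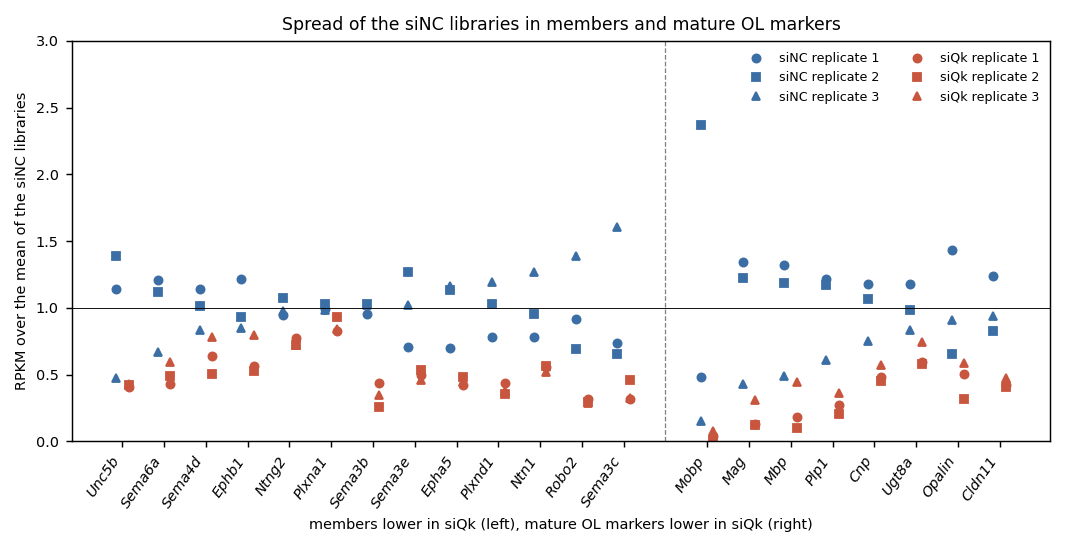
RPKM divided by the mean of the siNC libraries for the 13 members lower in siQk (left) and the 8 markers of mature OLs lower in siQk (right), with siNC in blue, siQk in red and a marker shape for each replicate, each side ordered by siNC replicate 3 relative to the other two. The siNC replicate 3 triangle lies at the bottom of the siNC points in Unc5b, Sema6a, Mag and Mbp and at the top in Robo2 and Sema3c.

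Below the filter lay 10 members, which were not tested. They were Epha1, Epha2, Epha6, Epha8, Ephb4, Robo3, Robo4, Sema3g, Slit3 and Ntn5, none above 0.356 RPKM in any library. Ntn5 was the highest of them in siNC, at 0.284, 0.281 and 0.356 RPKM against 0.0496, 0.177 and 0.0653 RPKM in siQk, but 23.4% of its annotated exon bases lie on exons of the opposite strand, mainly of Sec1, and the kit does not keep strand. Among the called members such overlap with any other gene reached 14.0% in Ntng2 and 10.7% in Plxna1, and was 2.17% in Ephb1 and at 0 in the others. The 43 tested members that were not called included 12 with an FDR below 0.1 that missed the limit on P. Over all genes tested, this held for 2166 of the 8626 genes not called. RPKM ranges did not overlap for 14 of the 43, and this share was not taken over all genes not called. Of the 43, Sema5a had the smallest P and was chosen here after its values were seen. It was at 16.2, 12.5 and 9.41 RPKM in siNC and 6.54, 5.05 and 9.38 RPKM in siQk (log2 fold change -1.02, standard error 0.30, edgeR FDR 0.0343).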

How the data were processed

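Gene levels of 3 siNC and 3 siQk mOPC libraries were analysed, grouped by their labels. The authors sequenced poly-A libraries as 75-nt paired-end reads, mapped them to mm10 by OLego and counted genes by Quantas (versions not given in the sources used here). The authors deposited, for each gene, its exon length, an estimated count of tags that is not normalized, and an RPKM scaled by that length and the library total. Replicates were not pooled, and none agreed within sampling noise. Between libraries of a group, the chi-square per degree of freedom was 194 to 342 in siNC and 38.0 to 77.5 in siQk. The edgeR fit described below did not let noise differ between the groups.

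Estimated counts were rounded, genes with an average logCPM over 0 were kept, TMM factors were computed, and edgeR 4.0.16 (limma 3.58.1, R 4.3.3) was run as the quasi-likelihood test over all genes, with the group as the only term and Benjamini-Hochberg adjustment. The step was tested on simulated data with the same noise in both groups. Calls needed P below 0.01 and FDR below 0.1. Standard errors were taken as the size of the log2 fold change divided by the root of F, and spread is the SD. Alternatives were DESeq2 1.42.0, other normalizations, filters and cutoff, the replicate number as a block and each library left out. Genes named with values were the called members, the highest member of each family, Qk, and called partner genes whose log2 fold change was 1 or more in size. Others are marked where named. Members and lists were chosen with earlier results of these data known. Gene positions come from RefSeq (GRCm38.p6, the assembly of mm10) and 3'UTRs of at least 50 bases from GENCODE M21. Reads of related family members may be split between them by the counting.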

Additional observations from a re-analysis of the deposited data

How the results depend on the processing

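Of the 17 called members, 9 kept their call and direction under every alternative that could be fitted for them (Robo2, Sema3b, Plxnd1, Epha5, Sema3e, Ntn1, Ntng2, Sema6c and Slit1), 8 lost it under at least 1, and none changed direction. Members called higher (4) numbered 7 with DESeq2, 7 with upper quartile normalization, 9 with library size only, 2 with an average logCPM over 1 and 2 with the replicate block. Those replicate numbers did not pair the libraries (correlations of same-numbered deviations -0.0528, -0.153 and -0.34), and no library correlated best with its own number. With the block 11 members were called, all among the 17, and all genes called fell to 2796 from 3879. Leaving out 1 library gave 10 to 19 called members, 2 to 5 higher and 8 to 16 lower, 14 to 23 partner genes and 2478 to 3704 genes in all, the lowest counts without siQk replicate 1, and log2 fold changes of Qk from -2.29 to -1.76. Fewer libraries also give the test less power. Lower calls over all genes made up 55.4% with TMM factors, 44.4% under upper quartile scaling and 31.4% under library size alone.

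Under these alternatives, changes of direction occurred in members not called and in none of those called. With library size only the log2 fold changes were 0.026 for Efna1, 0.10 for Epha4, 0.094 for Epha7, 0.098 for Robo1 and 0.044 for Sema4g, and with upper quartile normalization 0.011 for Epha4, 0.011 for Epha7 and 0.0092 for Robo1. With 1 library left out the values ranged from -0.20 to 0.33 for Efna5, -0.015 to 0.18 for Efnb1, -0.074 to 0.24 for Epha3, -0.23 to 0.15 for Epha4, -0.16 to 0.19 for Epha7, -0.00032 to 1.05 for Nrp2, -0.13 to 0.080 for Robo1, -0.63 to 0.063 for Sema4f, -0.35 to 0.031 for Sema4g, -0.067 to 0.14 for Plxnc1, -0.072 to 0.13 for Plxna4 and -0.0045 to 0.27 for Unc5d. The causes were not tested. Over the 60 tested members, Dcc and the 6 called partners with a log2 fold change of 1 or more in size, 762 values kept their side of the cutoff, 40 were weaker and 37 stronger, beside 27 that changed direction. The 10 members left untested were below the limit on level, and the number of libraries limits each single comparison.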
